A study of Rattus norvegicus with 44 samples.

Results

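The genes described here are 9 cell cycle inhibitor and senescence genes, measured in 2 regions of the rat hippocampus: Cdkn1a, Cdkn1b, Cdkn1c, Cdkn2a, Cdkn2c, Cdkn2d, Mdm2, Rb1 and Gadd45a. They were taken by symbol from the deposited tables, where 8 of the 9 were found among 20003 rows for CA1 and the same 8 among 20050 rows for the dentate gyrus (DG). Cdkn2d was not analysed here. RNA came from 22 male rats, with CA1 and DG taken from 1 hippocampus of each, which gave 44 libraries. Young rats aged 5 to 7 months received intraperitoneal lipopolysaccharide (LPS), a bacterial endotoxin that causes inflammation outside the brain, at 1 mg per kg (young LPS, n = 8). Aged rats of 14 to 16 months received saline (aged vehicle, n = 6), and so did young rats of 5 to 7 months (young vehicle, n = 8). All 3 groups were injected once a week for 7 weeks, and tissue was frozen 48 hours after the last injection. No aged rats given LPS were analysed here, and at 14 to 16 months the aged group is middle-aged rather than old. The series asks what repeated peripheral inflammation does to the hippocampus and how that compares with age.

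Passage through the cell cycle is driven by cyclin-dependent kinases (CDKs), which phosphorylate the retinoblastoma protein, the product of Rb1, and release the E2F factors that it holds back. Inhibitors of the INK4 type, made by Cdkn2a, Cdkn2c and Cdkn2d, bind CDK4 and CDK6, and inhibitors of the Cip/Kip type, made by Cdkn1a, Cdkn1b and Cdkn1c, bind several cyclin-CDK complexes. The factor p53 turns on Cdkn1a, Mdm2 and Gadd45a after DNA damage, and the Mdm2 protein in turn marks p53 for breakdown. Cells in senescence, a lasting exit from the cycle, usually carry more of the Cdkn2a or Cdkn1a product and secrete inflammatory factors. Most hippocampal neurons have left the cycle for good, while glia, vascular cells and the progenitors of the DG can still divide, so bulk RNA of this tissue mixes cells in which these genes play different parts. In such bulk libraries, fewer cells of a type and less RNA per cell cannot be told apart.

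Values are the authors' normalized read counts. CA1 libraries held 12292344 to 18749733 reads and DG libraries 12130182 to 23519792, and 1 read was worth 0.818 to 1.46 units in CA1, against 0.659 to 1.32 in DG. CA1 pyramidal markers separated the libraries by labelled region. The summed level of the 11 with a row ran from 30676 to 68854 in CA1 libraries and from 2934 to 18971 in DG libraries. That of 11 granule cell markers was 2574 to 10022 in CA1 libraries and 8751 to 15947 in DG libraries, so these ranges overlapped. Within DG the median pyramidal sum was 12761 in aged vehicle, 7572 in young LPS and 6083 in young vehicle. The tables were normalized separately, so these levels across regions are given without a test. Aged replicate 2532 stood apart in CA1: it was the highest or the lowest of the 22 libraries at 59.0% of genes, where the next library, young LPS replicate 2543, was so at 24.8%. In DG the vehicle replicates 2526 and 2572 and aged replicate 2532 had the 3 highest summed levels of endothelial, mural and meningeal fibroblast markers. The main values that move with these libraries are also given without them.

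Of the 8 genes with a row, 7 reached 10 normalized reads in at least 6 libraries of each region and were tested. Cdkn2a did not. Tests used limma on log2(value + 1) with adjusted p over all genes tested and a threshold of 0.05. In CA1, 0 of the 7 changed with LPS, where 0% of 14915 genes did (limma, 1024 at an unadjusted p below 0.05, 0 by edgeR and 1 by DESeq2), and 0 changed with age, where 0.0134% did. In DG, 0 of the 7 changed with LPS (0.0134% of 14904 genes, 0.00671% higher and 0.00671% lower), with age (0.0134%) or between young LPS and aged vehicle (0.0134%, again 0.00671% each way). Between young LPS and aged vehicle in CA1, 1 of the 7 changed, where 8.73% of genes did: Rb1 was lower in the LPS rats. At an unadjusted p below 0.05 limma had 0, 1 and 2 of the 7 genes in CA1 and 0 in each comparison in DG. For the 2 in CA1, young LPS against aged vehicle, such a p was held by 5336 of all 14915 genes. The tools edgeR and DESeq2, run on recovered reads, called 1 of the 7 genes, Rb1, in the same single comparison and 0 in the other 5. In young LPS against aged vehicle in CA1 they called 2144 and 3299 of all 14915 genes. The median log2 change of the 7 genes in CA1 was 0.043 with LPS, with 4 positive, where 52.2% of all genes were positive with a median of 0.012, and 0.019 with age, with 4 positive, where 50.4% of all genes were. In DG it was -0.019 with LPS, with 3 positive, where 48.8% of all genes were, and 0.0041 with age, with 4 positive, where 51.8% were. The LPS and age comparisons share the young vehicle libraries, so their values are set side by side and not correlated.

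**Figure D1:**
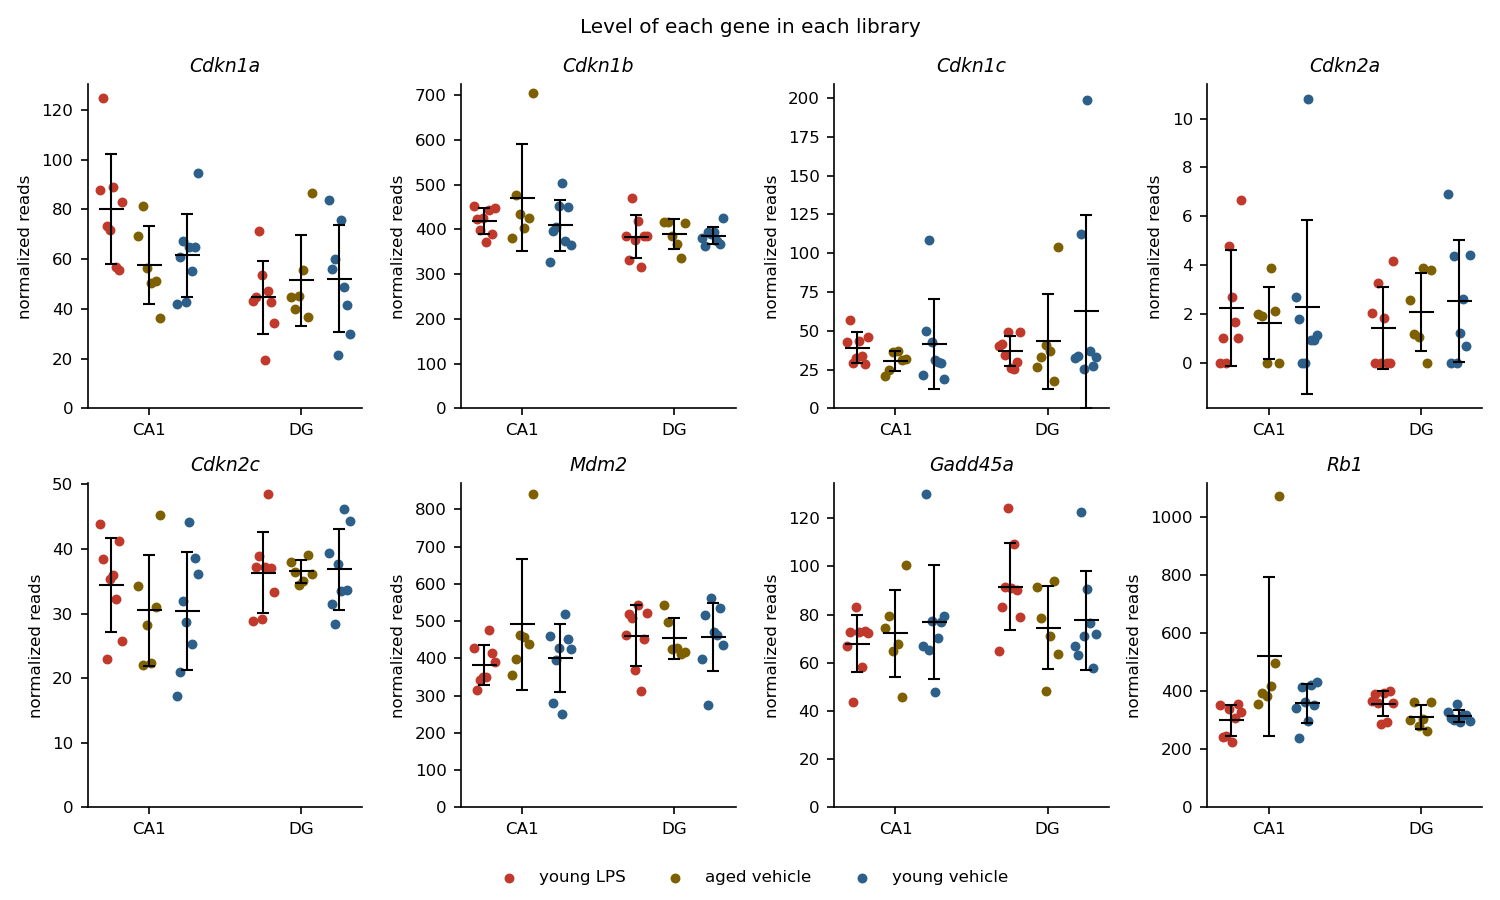
Normalized reads of the 8 genes with a row, 1 point per library, for young LPS (n = 8), aged vehicle (n = 6) and young vehicle (n = 8) in CA1 and DG, with the mean and SD in black. In CA1 a single aged library, replicate 2532, stands far above the others for Rb1, Mdm2 and Cdkn1b, and the groups of every gene overlap.

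**Figure D2:**
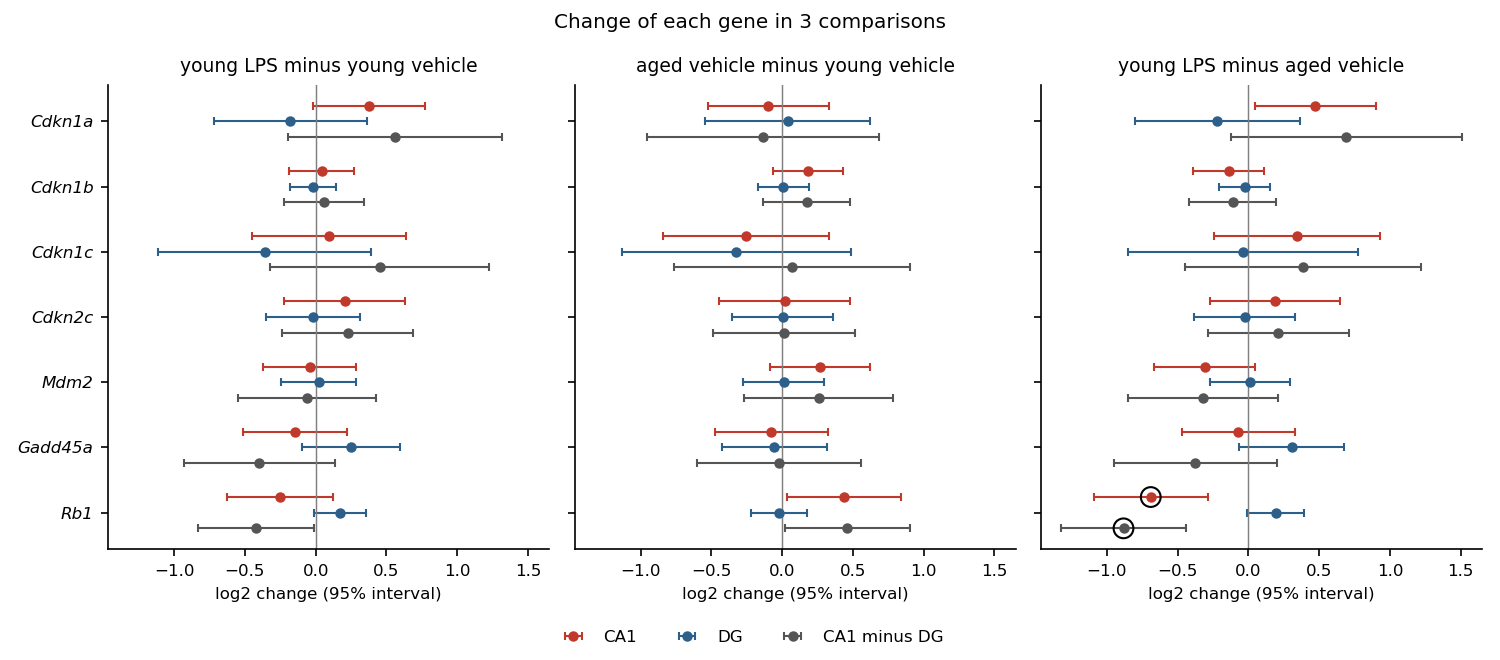
Log2 changes with 95% intervals from limma for the 7 genes tested, in the 3 comparisons, for CA1, DG and the difference between the regions within each rat. Circles mark the 2 values with an adjusted p below 0.05, both for Rb1 in young LPS minus aged vehicle.

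Cdkn1a encodes p21, the inhibitor through which p53 halts the cycle. Its promoter is shown because the list turns on this link. RefSeq promoter windows of build GRCr8 were matched by symbol for 8 of the 9 genes, and a p53 element, searched on both strands with up to 1 mismatch, was found in 1 of them, that of Cdkn1a. The element was in 18 of 27457 windows, each searched over its first 250 bases (0.0656%). For Cdkn1a only 138 of these bases lie before the annotated start. The 138 bases before the annotated start of Cdkn1a lie at chr20:7150682-7150819 on the plus strand, and the capitals mark the element, which holds 1 mismatch and covers bases 89 to 70 before the start. A match of letters is a description of the sequence and says nothing about binding in these rats.
Cdkn1a: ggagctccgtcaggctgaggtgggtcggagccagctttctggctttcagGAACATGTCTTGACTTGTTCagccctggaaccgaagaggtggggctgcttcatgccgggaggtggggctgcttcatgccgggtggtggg

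In CA1, Cdkn1a ran from 55.7 to 125 normalized reads with a median of 78.1 in young LPS, from 36.5 to 81.4 with a median of 53.8 in aged vehicle, and from 41.8 to 94.6 with a median of 62.9 in young vehicle. The highest library of the 22 was young LPS replicate 2404 and the lowest was aged replicate 2532. The groups overlapped, although 8 of 8 LPS libraries lay above the aged median and 6 of 8 above the vehicle median. Means were 80.2 ± 22.1 in young LPS (SD, n = 8), 57.6 ± 15.8 in aged vehicle (SD, n = 6) and 61.5 ± 16.6 in young vehicle (SD, n = 8). On the log2 scale Cdkn1a differed by 0.38 for LPS against young vehicle (SE 0.19, limma adjusted p = 0.654), -0.096 for age (SE 0.21, limma adjusted p = 0.822) and 0.47 for LPS against aged vehicle (SE 0.21, limma adjusted p = 0.106). The last of these had an unadjusted limma p of 0.0310, and none passed the threshold. Over the 34 alternatives the change with LPS in CA1 ran from 0.25 to 0.47.

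The picture in DG was different in sign. Cdkn1a averaged 44.6 ± 14.8 normalized reads in young LPS (SD, n = 8), 51.5 ± 18.4 in aged vehicle (SD, n = 6) and 52.2 ± 21.4 in young vehicle (SD, n = 8). The LPS libraries ran from 19.5 to 71.2, the aged ones from 36.9 to 86.7 and the vehicle ones from 21.3 to 83.8, so the groups overlapped almost fully. Its log2 change in DG was -0.18 with LPS (SE 0.26, limma adjusted p = 0.907) and 0.039 with age (SE 0.28, limma adjusted p = 1). The LPS change in CA1 minus that in DG was 0.56 (SE 0.36, limma adjusted p = 0.477, 95% interval -0.20 to 1.31), which did not pass. In CA1 the 2 genes whose group-centred levels were most like those of Cdkn1a over the 22 libraries were Paqr6 (Pearson r = 0.78) and Pim3 (0.77). In DG the level of Cdkn1a went with the summed markers of several other cell types, with r between 0.56 and 0.67 over 22 libraries. These were microglia (0.67), endothelium (0.64), oligodendrocytes (0.61), oligodendrocyte precursors (0.59), choroid plexus (0.59), astrocytes (0.59), mural cells (0.56) and meningeal fibroblasts (0.56). Without replicates 2526, 2572 and 2532 these values were 0.72, 0.58, 0.58, 0.66, 0.51, 0.57, 0.44 and 0.31. In CA1 Cdkn1a had r from -0.29 with interneuron markers to 0.57 with granule cell progenitor markers, with 0.49 for mural cells and 0.42 for oligodendrocytes. Without those rats the highest in CA1 were 0.60 for meningeal fibroblasts, 0.58 for granule cell progenitors and 0.58 for oligodendrocytes. The part of these cells in the values was not tested.

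Mdm2 encodes the ubiquitin ligase that restrains p53 and is itself a p53 target. In CA1 it ran from 314 to 476 normalized reads in young LPS (median 370.0), from 355 to 840.1 in aged vehicle (median 448) and from 250.2 to 518 in young vehicle (median 427). A single library, aged replicate 2532, accounted for the highest value, and the next of that group was 462. On the log2 scale Mdm2 changed by -0.041 with LPS (SE 0.16, limma adjusted p = 0.935), 0.27 with age (SE 0.17, limma adjusted p = 0.444) and -0.31 for LPS against aged vehicle (SE 0.17, limma adjusted p = 0.195). Without replicate 2532 the change with age was 0.10 and that for LPS against aged vehicle -0.14. Without replicates 2526, 2572 and 2532 the change with age was -0.0022. Mdm2 in DG averaged 461 ± 81.6 in young LPS (SD, n = 8), 453.5 ± 53.8 in aged vehicle (SD, n = 6) and 457 ± 91.0 in young vehicle (SD, n = 8), and its log2 changes there were 0.021, 0.010 and 0.010 in the 3 comparisons.

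Gadd45a encodes a stress sensor that slows the cycle and takes part in DNA repair. In CA1 it averaged 68.0 ± 11.9 normalized reads in young LPS (SD, n = 8), 72.2 ± 18.1 in aged vehicle (SD, n = 6) and 76.9 ± 23.7 in young vehicle (SD, n = 8). In DG it averaged 91.7 ± 18.2 in young LPS, 74.6 ± 17.3 in aged vehicle and 77.6 ± 20.6 in young vehicle, with the same numbers of rats. Of the 8 LPS libraries in DG, 7 lay above the vehicle median and 7 above the aged median, though the ranges of 64.8 to 124, 48.4 to 93.9 and 57.9 to 122 overlapped. The log2 change of Gadd45a with LPS was -0.15 in CA1 (SE 0.18, limma adjusted p = 0.764) and 0.25 in DG (SE 0.17, limma adjusted p = 0.774). The difference between the regions was -0.40 (SE 0.26, limma adjusted p = 0.473, 95% interval -0.93 to 0.14) and did not pass. With age, Gadd45a changed by -0.077 in CA1 and -0.054 in DG, both within the error.

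Cdkn2a, which encodes the INK4 inhibitor p16 and, from another reading frame, the p53 activator Arf, was close to the limit of detection. In CA1 it ran from 0 to 6.67 normalized reads in young LPS, from 0 to 3.88 in aged vehicle and from 0 to 10.8 in young vehicle, and 6 of 22 libraries were at 0. In DG the ranges were 0 to 4.17, 0 to 3.90 and 0 to 6.90, and 7 of 22 libraries were at 0. Summed over each group, CA1 held 19 reads in young LPS, 10 in aged vehicle and 19 in young vehicle, and DG held 13, 13 and 19. Of the 22 libraries, 18 in CA1 and 15 in DG had 3 reads or fewer. The highest library in either region, vehicle replicate 2572 in CA1, had 11 reads. A difference between groups was not detectable at this depth, and gene-level values cannot separate the p16 message from that of Arf.

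Cdkn2c encodes p18, an INK4 inhibitor found in many adult tissues. In CA1 it averaged 34.5 ± 7.26 normalized reads in young LPS (SD, n = 8), 30.5 ± 8.65 in aged vehicle (SD, n = 6) and 30.4 ± 9.12 in young vehicle (SD, n = 8). The level of Cdkn2c in DG was 36.3 ± 6.27 in young LPS, 36.5 ± 1.78 in aged vehicle and 36.8 ± 6.21 in young vehicle. The 6 aged DG libraries lay between 34.4 and 39.1, inside the range of both young groups. Its log2 changes were 0.21, 0.019 and 0.19 in CA1 and -0.021, 0.0041 and -0.025 in DG, for LPS, age and LPS against aged vehicle. The lowest limma adjusted p of Cdkn2c in these 6 comparisons was 0.563.

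Cdkn1b encodes p27, which helps keep cells out of the cycle. It was the steadiest of the genes in DG, where its highest library was 1.48 times its lowest. Its DG levels were 384 ± 47.8 normalized reads in young LPS (SD, n = 8), 389.5 ± 32.7 in aged vehicle (SD, n = 6) and 386 ± 19.5 in young vehicle (SD, n = 8). Its log2 change in DG with LPS was -0.019 with a 95% interval of -0.18 to 0.15, and with age 0.0086 with an interval of -0.17 to 0.19. In CA1 the level of Cdkn1b was 419 ± 29.1 in young LPS, 471 ± 119 in aged vehicle and 409 ± 57.0 in young vehicle, and the aged spread came from replicate 2532 at 704, where the next aged library was at 477. Its log2 change with age in CA1 was 0.18 (SE 0.12, limma adjusted p = 0.452), and 0.060 without replicate 2532. The genes most like Cdkn1b over the DG libraries were Adk (r = 0.85) and Crybg3 (0.78).

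Cdkn1c encodes p57, an imprinted inhibitor that is abundant in several non-neuronal tissues. A few libraries stood far above the rest. In DG the vehicle replicates 2572 and 2526 had 199 and 113 normalized reads and aged replicate 2532 had 104, while the next highest library had 49.5 and the lowest 17.9. In CA1 vehicle replicate 2526 had 109, and the next highest library, young LPS replicate 2404, had 57.2. The same DG libraries had the 3 highest summed markers of meningeal fibroblasts (1936 to 2160, next 1331) and of endothelium (7555 to 9854, next 6420). Of the 12 meningeal markers only 5 had a row in DG, against 12 in CA1, so the meningeal sums of the 2 regions cover different markers. Over the 22 DG libraries the group-centred log2 level of Cdkn1c had r = 0.89 with meningeal fibroblast markers, 0.89 with endothelial, 0.84 with perivascular macrophage and 0.82 with mural markers. Without replicates 2526, 2572 and 2532 these values were 0.59, 0.41, 0.037 and 0.23. Other lists were then as high, with 0.60 for CA1 pyramidal, 0.55 for oligodendrocyte precursor and 0.54 for astrocyte markers. Some lists share a marker. Dcn is in the meningeal and CA1 pyramidal lists, Pdgfra in the meningeal and oligodendrocyte precursor lists, and Cspg4 in the mural and oligodendrocyte precursor lists. In CA1 Cdkn1c had r = 0.79 with choroid plexus and 0.75 with meningeal fibroblast markers, and 0.49 and 0.47 without the 3 rats. The highest list in CA1 was then that of astrocytes, at 0.57. The part of these cells in the level of Cdkn1c was not tested.

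**Figure D3:**
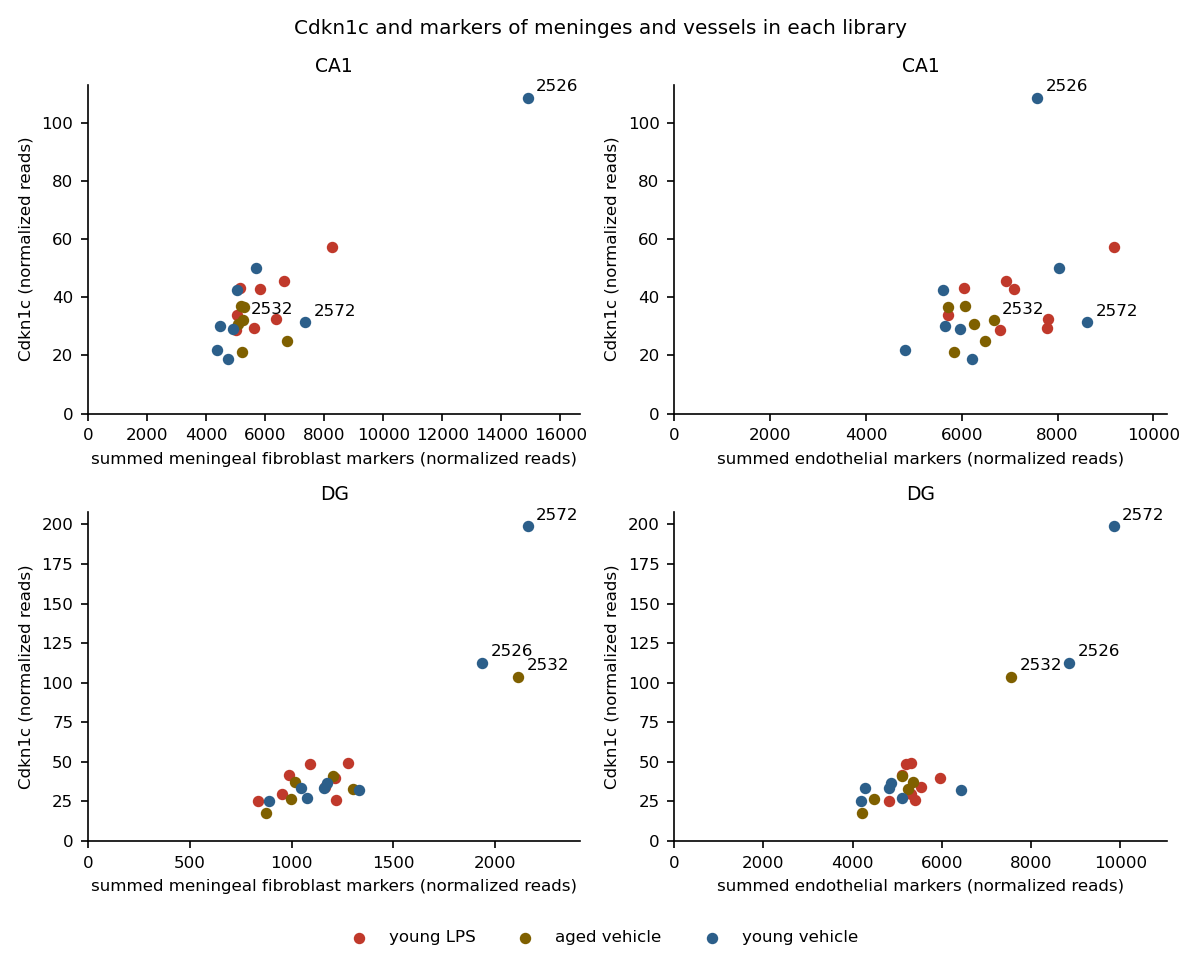
Normalized reads of Cdkn1c against the summed normalized reads of meningeal fibroblast markers (left) and endothelial markers (right), 1 point per library, for CA1 (top) and DG (bottom). In DG replicates 2572, 2526 and 2532 stand apart on both axes, and in CA1 replicate 2526 does for the meningeal markers. The meningeal sum covers 12 markers in CA1 and 5 in DG.

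Group means of Cdkn1c follow those libraries. In DG it averaged 37.0 ± 9.55 normalized reads in young LPS (SD, n = 8), 43.2 ± 30.8 in aged vehicle (SD, n = 6) and 62.5 ± 62.0 in young vehicle (SD, n = 8), although the medians were 37.2, 34.9 and 33.4. With LPS Cdkn1c changed by -0.36 on the log2 scale (SE 0.37, limma adjusted p = 0.857), and by 0.20 without the 3 rats 2526, 2572 and 2532. In CA1 Cdkn1c averaged 39.2 ± 9.78 in young LPS, 30.4 ± 6.33 in aged vehicle and 41.6 ± 29.0 in young vehicle, with log2 changes of 0.094 with LPS, -0.25 with age and 0.35 for LPS against aged vehicle, none past the threshold. Without vehicle replicate 2526 the change in CA1 was 0.32 with LPS and -0.027 with age.

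Rb1 was the one gene of the list past the threshold. In CA1 it ran from 225 to 356 normalized reads in young LPS with a median of 319, from 354 to 1072 in aged vehicle with a median of 405, and from 240.2 to 433 in young vehicle with a median of 357.5. The LPS libraries were low and the aged ones high: 7 of 8 LPS libraries lay below the lowest aged library, and only young LPS replicate 2573, at 356, overlapped the aged range. Means were 300.0 ± 53.5 in young LPS (SD, n = 8), 519 ± 275 in aged vehicle (SD, n = 6) and 358 ± 66.6 in young vehicle (SD, n = 8). Rb1 was lower in young LPS than in aged vehicle by a log2 change of -0.69 (SE 0.20, 95% interval -1.09 to -0.29, limma adjusted p = 0.0490).

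This call rested on a margin, since the adjusted p lay just under the threshold. The aged value at 1072 belonged to replicate 2532, and the next aged library was at 496. Without replicate 2532 the change was -0.46 and no longer passed (limma adjusted p = 0.122), although 8 of 8 LPS libraries lay below the aged median with it. Without that replicate 0 of all 14915 genes passed in this comparison. The call also ended when any one of 14 other libraries was left out: young LPS 2404, 2408, 2527, 2543 and 2717, aged 2415, 2420 and 2531, and young vehicle 2410, 2526, 2571, 2722, 2728 and 2731, with changes from -0.75 to -0.63. Leaving out any one of the remaining 7 kept it. Genes tested without a filter gave an adjusted p of 0.0656 for Rb1, and the fit of the 2 groups alone gave 0.0914. DESeq2 gave -0.79 with an adjusted p of 0.00829, edgeR -0.79 with 0.0342, and library weights in limma, which count an outlying library less, -0.45 with 0.0100. Over all genes they called 3299, 2144 and 3496 in this comparison. The sign was negative in all 34 alternatives.

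Against young vehicle, neither side of that difference passed alone. In CA1 Rb1 had a log2 change of -0.25 with LPS (SE 0.18, limma adjusted p = 0.662) and 8 of 8 LPS libraries lay below the vehicle median. Its change with age was 0.44 (SE 0.20, limma adjusted p = 0.393), with 5 of 6 aged libraries above the vehicle median and 2 above the highest vehicle library. Without replicate 2532 the change with age was 0.21 (limma adjusted p = 0.787).

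In DG the order was turned. Rb1 ran from 286.5 to 402 normalized reads in young LPS with a median of 363, from 262 to 362 in aged vehicle with a median of 303, and from 294 to 356 in young vehicle with a median of 312. Of the 8 LPS libraries 6 lay above the highest vehicle library, but the other 2, replicates 2527 and 2547, were the third and the fifth lowest of the 22. Means were 357 ± 43.7 in young LPS (SD, n = 8), 312 ± 41.5 in aged vehicle (SD, n = 6) and 315 ± 20.2 in young vehicle (SD, n = 8). The log2 change of Rb1 in DG was 0.17 with LPS (SE 0.090, limma adjusted p = 0.680), -0.022 with age (SE 0.097, limma adjusted p = 1) and 0.19 for LPS against aged vehicle (SE 0.097, limma adjusted p = 0.561).

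The 2 regions of each rat allow a direct test of whether a group effect was the same in both. Between young LPS and aged vehicle 1 of the 7 genes differed, again Rb1, where 8.98% of 14637 genes did. The other differences gave 0 of 7, for LPS against young vehicle (0.00683% of genes) and for age (0%). Of the 7 genes only Rb1 had an unadjusted limma p below 0.05 in each of these 2, and neither value passed over all 14637 genes. The share of all genes with such a p is not given here. For Rb1 the change of young LPS minus aged vehicle in CA1 was lower than that in DG by a log2 difference of -0.88 (SE 0.21, 95% interval -1.32 to -0.44, limma adjusted p = 0.0376). As a share of all reads of its library, Rb1 was higher in CA1 than in DG in 2 of 8 young LPS rats, against 6 of 6 aged vehicle rats and 6 of 8 young vehicle rats. Without replicate 2532 the difference was -0.69 (limma adjusted p = 0.103), and the call also ended without young LPS 2404, 2408 or 2543 or aged 2415, 2420 or 2531. For LPS against young vehicle it was -0.42 (SE 0.20, limma adjusted p = 0.379), and for age 0.46 (SE 0.21, limma adjusted p = 0.735), or 0.27 without replicate 2532.

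**Figure D4:**
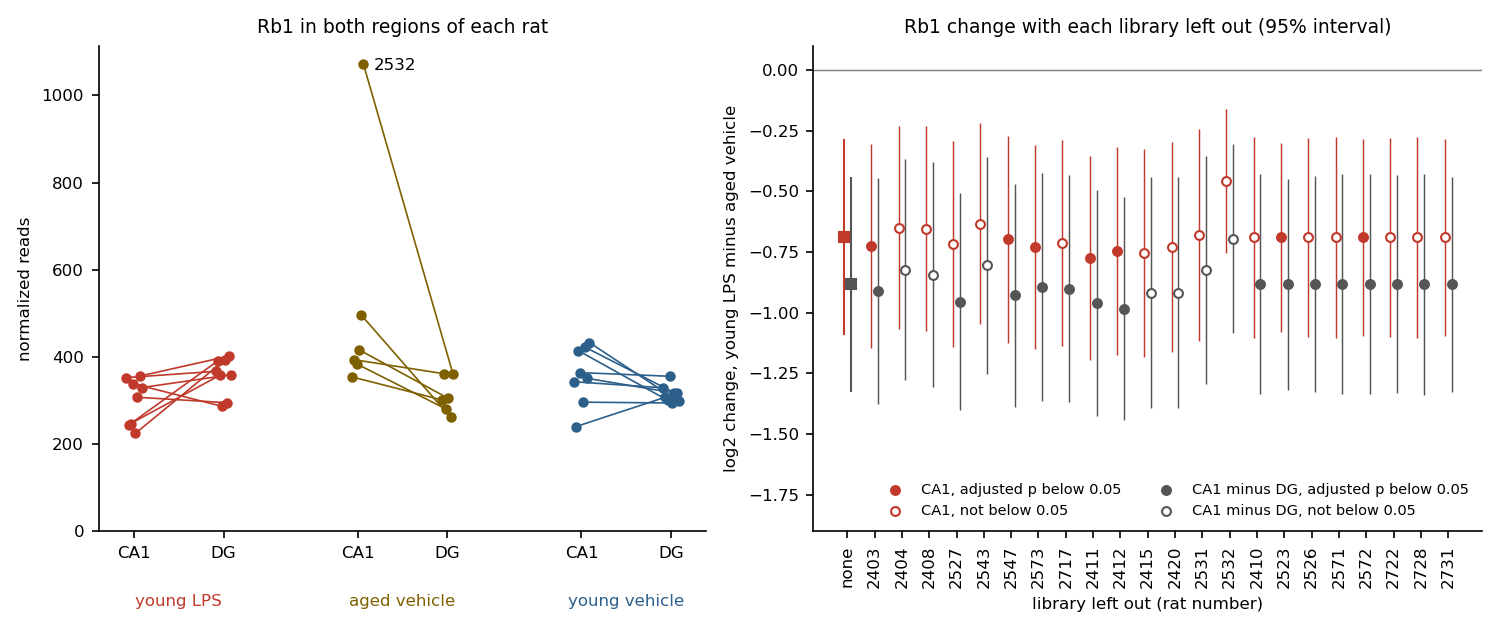
Left, normalized reads of Rb1 in CA1 and DG of each rat, joined by a line, by group. Right, the log2 change of Rb1 in young LPS minus aged vehicle with 95% intervals, in CA1 and as CA1 minus DG, with all libraries (squares) and with each library left out in turn; filled circles have an adjusted p below 0.05. The change stays below 0 throughout and is nearest to 0 in CA1 without replicate 2532, at -0.46.

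Measures of library composition moved with Rb1 in CA1. The share of normalized reads in genes with ribosomal protein symbols ran from 0.817% to 1.13% in young LPS, from 0.534% to 0.909% in aged vehicle and from 0.833% to 1.40% in young vehicle, and the lowest was that of replicate 2532. Over the 22 CA1 libraries, group-centred, Rb1 had r = -0.77 with this share (-0.59 without 2532) and Mdm2 had -0.74 (-0.57). In DG the values were 0.040 and -0.25. Few markers of cell types were called: between young LPS and aged vehicle in CA1, 2 of 11 endothelial, 2 of 10 oligodendrocyte precursor and 1 of 10 mural markers were called higher, and 1 of 14 oligodendrocyte, 1 of 12 microglial and 1 of 12 interneuron markers lower, where 3.49% of all genes were called higher and 5.24% lower. Over the CA1 libraries the correlation of Rb1 with a list's level ran from -0.60 for granule cell progenitors to 0.52 for interneurons, and without replicate 2532 from -0.69 for blood cells to 0.65 for interneurons. The part of RNA quality and of cell makeup in the Rb1 result was not tested. With a dissection score in the fit, CA1 pyramidal minus granule cell markers, the CA1 change of Rb1 was -0.67 (limma adjusted p = 0.0473). The difference of Rb1 between the regions was not fitted with this score.

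Among themselves the genes did not move as a group. Over the 22 CA1 libraries, group-centred on the log2 scale, Mdm2 and Rb1 went together with r = 0.82, and 0.69 without replicate 2532. In DG the same pair had r = 0.52. Cdkn1a ran against both in CA1, with r = -0.53 for Mdm2 and -0.42 for Rb1 (-0.40 and -0.20 without replicate 2532), and against Mdm2 in DG with -0.41. Cdkn1a and Gadd45a, both p53 targets, had r = 0.035 in CA1 and 0.099 in DG. These are descriptions over 22 libraries that share depth and composition. Such likeness was common in CA1: 26.0% of 12317 genes had r above 0.5 with Mdm2 and 26.5% with Rb1, against 1.81% with Gadd45a. The genes most like Rb1 in CA1 were Arhgap12 (r = 0.96) and Rin2 (0.95), and those most like Mdm2 were Slc25a16 (0.95) and Orc2 (0.95). In DG they were Snx25 (0.78) and Elf2 (0.76) for Rb1 and Nup54 (0.88) and Sec22b (0.86) for Mdm2.

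**Figure D5:**
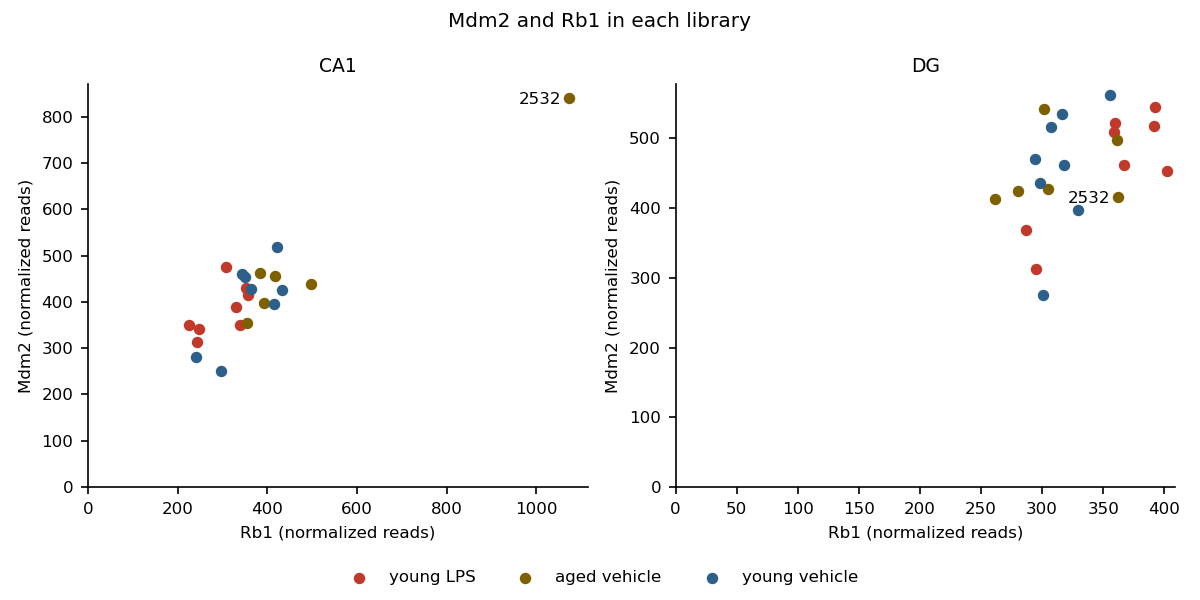
Normalized reads of Mdm2 against those of Rb1, 1 point per library, in CA1 and DG. In CA1 aged replicate 2532 is the highest on both axes (840.1 and 1072), and the other libraries also rise together, with r = 0.69 on the group-centred log2 scale without it.

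The order of the levels between regions can be read only within a rat. As a share of all reads of a library, Cdkn1a was higher in CA1 than in DG in 17 of 22 rats, in 7 of 8 young LPS, 4 of 6 aged vehicle and 6 of 8 young vehicle rats. Cdkn1b was likewise higher in CA1 in 17 of 22. Rb1 was higher in CA1 in 14 rats, Cdkn1c in 11, Gadd45a in 10, Mdm2 in 9 and Cdkn2c in 8. No test was made, since the regions were normalized separately. Levels in the 2 regions of a rat were weakly related: the correlation of group-centred levels between a rat's libraries ran from -0.31 for Mdm2 to 0.35 for Cdkn1c over 22 rats.

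Other genes of the same pathways are given by list, and members of these lists are not independent of one another. Of 26 p53 target genes tested, other than the genes above, 0 changed with LPS or age in CA1, and 0 of 27 did in any comparison in DG. At an unadjusted limma p below 0.05 stood 2 with LPS and 2 with age in CA1, and 2, 1 and 2 in the comparisons in DG. For young LPS against aged vehicle in CA1 it was 13 of 26, where 5336 of all 14915 genes had such a p. Between young LPS and aged vehicle in CA1, where 3.49% of all genes were called higher and 5.24% lower, 1 was lower: Polk, a DNA polymerase that copies past damaged bases. Polk was 108 ± 13.6 normalized reads in young LPS (SD, n = 8) and 158 ± 29.2 in aged vehicle (SD, n = 6), with a log2 difference of -0.54 (SE 0.12, limma adjusted p = 0.0490), and -0.45 without replicate 2532 (limma adjusted p = 0.119). All 8 LPS libraries, at 87.4 to 124, lay below all 6 aged ones, at 135 to 213, as was the case for 88 of all 14915 genes, while 37 separated the other way. The median change of the 26 genes was -0.050, with 11 positive, where the median over all genes was 0.022. With LPS in CA1 it was -0.022 with 12 positive, and with age 0.031 with 14 positive. In DG the medians of the p53 targets were -0.0032 with LPS and -0.049 with age, where 7 of 27 were positive. The gene of smallest p with age in DG was Btg2, an antiproliferative factor (log2 change -0.35, limma adjusted p = 1).

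Proliferation genes are active mainly in dividing cells. Of 19 tested, 0 changed with LPS or age in CA1 or in any comparison in DG. In CA1, 2 were lower in young LPS than in aged vehicle, where 5.24% of all genes were called lower and 3.49% higher. Rrm1, the large subunit of ribonucleotide reductase, was 279.9 ± 31.8 normalized reads in young LPS (SD, n = 8) and 405 ± 133 in aged vehicle (SD, n = 6), or -0.49 on the log2 scale (SE 0.13, limma adjusted p = 0.0490). Gmnn, which encodes the replication inhibitor geminin, was 17.0 ± 13.2 and 42.3 ± 27.8 in these groups, a change of -1.36 (SE 0.40, limma adjusted p = 0.0490). Without replicate 2532 the changes were -0.33 for Rrm1 and -1.09 for Gmnn, with limma adjusted p of 0.119 and 0.131. The median change of the list was 0.0040, with 10 positive. Birc5, the survivin gene, had the smallest p with LPS in CA1 (log2 change 0.84, limma adjusted p = 0.654). Its level there was low, at 19.0 ± 7.52 normalized reads in young LPS and 12.3 ± 7.89 in young vehicle (SD, n = 8 each). The lowest vehicle library, replicate 2526, had 1.64.

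Of 18 G1 cyclins, CDKs and E2F genes, 0 passed in any of the 3 comparisons in either region, and at an unadjusted limma p below 0.05 stood 0, 0 and 4 in CA1 and 1, 0 and 3 in DG. For the 4 in CA1, young LPS against aged vehicle, such a p was held by 5336 of all 14915 genes. In DG the gene of smallest p with LPS was Cdk4, a kinase that the INK4 proteins bind, at 475 ± 53.9 normalized reads in young LPS and 561 ± 48.6 in young vehicle (SD, n = 8 each; log2 change -0.24, SE 0.083, limma adjusted p = 0.523). For LPS against aged vehicle in CA1 it was Ccnd3, cyclin D3 (log2 change 0.34, limma adjusted p = 0.0645).

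Other inhibitors and partners, among them the checkpoint kinases Atm and Chek1 and the p53 phosphatase Ppm1d, gave 0 of 19 past the threshold in each comparison in CA1 and 0 of 20 in DG. Their median change was -0.27 for young LPS minus aged vehicle in CA1, with 6 positive and 13 negative, where the median over all genes was 0.022. An unadjusted limma p below 0.05 was held by 8 of the 19, and by 5336 of all 14915 genes. Chek1 had the smallest p there (log2 change -0.49, limma adjusted p = 0.0503). In DG Ppm1d ran from 331 to 399.5 normalized reads in young LPS and from 275 to 317 in aged vehicle. These groups did not overlap, which held for 31 of all 14904 genes in this direction and 35 in the other, where 0.0134% passed the threshold. Its log2 change there was 0.27 (SE 0.077, limma adjusted p = 0.272).

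The region differences of these lists held more calls, all for young LPS minus aged vehicle, where 3.79% of genes were called higher and 5.19% lower. Of the 19 inhibitors and partners, 1 was higher in CA1 minus DG and 3 were lower. Of the 26 p53 targets 3 were higher and 2 lower, of 19 proliferation genes 0 and 1, and of 17 chromatin and lysosome genes 0 and 2. Ppm1d, which is in both of the first lists, had a difference of -0.77 (SE 0.18, limma adjusted p = 0.0375). Atm had -0.83, Ddit4, an inhibitor of mTOR signalling, 0.82, and Fdxr, a mitochondrial ferredoxin reductase, 0.77. Gmnn had -1.46, the chromatin protein gene Hmgb1 -0.83 and Suz12, a Polycomb subunit, -0.80. In CA1 the highest of the 22 libraries for Ppm1d, Atm, Chek1 and Suz12 was replicate 2532, at 619.9, 1208, 1189 and 702 normalized reads. Without replicate 2532, 1 gene of all 14637 was called, and without the rats 2526, 2572 and 2532, 0.

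Genes of the senescence-associated secretory phenotype are the cytokines, proteases and growth factors that senescent cells release. They gave 0 calls of 28 in CA1 and 0 of 27 in DG in each comparison. At an unadjusted limma p below 0.05 stood 1, 2 and 2 of them in CA1 and 2, 2 and 4 in DG. For young LPS against aged vehicle in CA1, such a p was held by 2 of the 28 and by 5336 of all 14915 genes. With LPS in CA1, 24 of the 28 had a positive change with a median of 0.12, where 52.2% of all genes were positive with a median of 0.012. Without the rats 2526, 2572 and 2532 the count was again 24 of 28, with a median of 0.23. Markers of other cells in the same comparison were also mostly positive, with 10 of 12 for astrocytes, 10 of 14 for oligodendrocytes, 8 of 12 for microglia, 7 of 11 for endothelium and 7 of 10 for mural cells, though 2 of 8 for choroid plexus and 0 of 4 for perivascular macrophages. Among neuronal lists it was 9 of 10 for CA1 pyramidal cells, 7 of 12 for interneurons, 6 of 10 for granule cell progenitors and 3 of 9 for granule cells. Blood cells had 4 of 4 and meningeal fibroblasts 8 of 12. The part of all these cells in the list was not tested. In DG 11 of 27 were positive with LPS (median -0.020) and 12 with age (median -0.034), but without those 3 rats 18 were positive with LPS (median 0.061). Spp1, which encodes osteopontin, was 61.2 ± 12.6 normalized reads in young LPS (SD, n = 8), 66.9 ± 9.23 in aged vehicle (SD, n = 6) and 44.2 ± 13.7 in young vehicle (SD, n = 8) in CA1. Spp1 differed by 0.50 with LPS (log2, SE 0.18, limma adjusted p = 0.654) and by 0.64 with age (SE 0.20, limma adjusted p = 0.393), and neither passed. In DG Vegfa, the vascular growth factor gene, was 1797 ± 128 in young LPS and 1389 ± 344 in young vehicle (SD, n = 8 each), a change of 0.41 (SE 0.12, limma adjusted p = 0.515).

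Among 17 genes of senescence chromatin and lysosomes, 1 passed: Cbx2, a Polycomb subunit that binds methylated histone H3, was higher in young LPS than in aged vehicle in CA1, at 71.2 ± 21.8 normalized reads in young LPS (SD, n = 8) and 40.5 ± 8.00 in aged vehicle (SD, n = 6). Its log2 difference was 0.76 (SE 0.20, limma adjusted p = 0.0490), and 0.71 without replicate 2532 (limma adjusted p = 0.119). With all libraries, 3.49% of all genes were called higher in this comparison and 5.24% lower. In DG Cbx2 was low in the aged rats, at 32.4 to 57.0 in aged vehicle and 71.0 to 109 in young vehicle. These groups did not overlap, which held for 7 of all 14904 genes in this direction and 4 in the other, where 0.0134% passed the threshold. Its log2 change with age in DG was -0.88 (SE 0.17, limma adjusted p = 0.106), which did not pass over all 14904 genes. In CA1 its change with age was -0.53 (SE 0.20, limma adjusted p = 0.393), in the same direction.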

How the data were processed

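Polyadenylated RNA was sequenced from CA1 and DG of each rat with an Ion Torrent total RNA library kit, per the labels' protocols. For each region the authors deposited normalized read counts, a signal that is never negative. Per the submitters' processing notes STAR, Partek, DESeq2 and build rn6 were involved, with no version or role. What annotation and filters were used, and whether counting used strand, is not given in the sources used here. Each library's values are multiples of 1 step, the worth of 1 read; dividing by it gave whole reads, within 0.1, at 99.1% of CA1 values and 99.97% of DG values.

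A gene was tested in a region if 6 or more libraries reached 10, with limma 3.58.1 (R 4.3.3; trend, robust) on log2(value + 1). Each region had a single fit of its 3 groups, and p-values were adjusted over all genes (Benjamini-Hochberg). This scale understates changes of low genes. Regions were compared by limma on CA1 minus DG within each rat. That pairing comes from the labels, which give both libraries the rat's number; deviations of a rat's libraries had a median correlation of 0.051 and exceeded 0.1 in 8 of 22 rats. Counts tests on recovered reads (edgeR 4.0.16, DESeq2 1.42.0) called 2144 and 3299 genes for young LPS against aged vehicle in CA1, where limma called 1302. Scripts were tested on simulated data. The groups are separate rats.

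The 9 genes, the lists and the tests were chosen with earlier results of these data known. The rule names the 9 genes, the genes of each list past the threshold (up to 3 by p, otherwise the 1 of smallest p) and the 2 genes most like each member with a mean of at least 50; some of these are left out for length. Intervals are 95% confidence intervals of a difference of group means, with an error taken from the spread between rats. Alternatives were other pseudocounts (5, 0.25), filters, scaling, fits, weights for libraries, a term for the series of rat numbers, a dissection score and libraries left out. The result of 1 gene of these lists is not reported here.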

Additional observations from a re-analysis of the deposited data

Results flagged for a closer look

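Of 48 groups of libraries tested for a single value far from the rest, 8 were flagged, and chance flags about 1 in 20. Aged replicate 2532 gave 3 of them in CA1: Rb1 at 1072 normalized reads (next aged library 496), Mdm2 at 840.1 (next 462) and Cdkn1b at 704 (next 477). The same rat gave 2 in DG, Cdkn1c at 104 (next 40.8) and Cdkn1a at 86.7 (next 55.5). Among young vehicle libraries in CA1, replicate 2526 had Cdkn1c at 109 (the next was replicate 2523), replicate 2523 had Gadd45a at 130.1 (next 79.4) and replicate 2572 had Cdkn2a at 10.8 (next 2.72), which was 11 reads. The effect of young LPS against aged vehicle on Rb1 differed between the regions, with a log2 difference of -0.88 for CA1 minus DG (limma adjusted p = 0.0376), by a test of the difference itself.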

How the results depend on the processing

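The call of Rb1 for young LPS against aged vehicle was the only one among the 7 genes and rested on a narrow margin. The number of genes past the threshold was 1, and 0 with no filter, with only the 2 groups or without rats 2526, 2572 and 2532 in CA1, and 0 without those rats for CA1 minus DG. Leaving out 1 library gave 0 to 1 in both. In CA1, 16 of 34 alternatives kept the Rb1 call, with log2 changes of -0.81 to -0.45 and adjusted p of 0.00829 to 0.122. For CA1 minus DG 19 of 27 did, with -1.03 to -0.69 and 0.0228 to 0.103. The fit without the replicate block, where a rat's libraries are not paired, gave an adjusted p of 0.0245 for Rb1, and the pairing changed no other call of the 7 genes. Over all genes the 1302 calls for young LPS against aged vehicle in CA1 became 2144 with edgeR, 3299 with DESeq2, 3496 with library weights, 2910 with the number series, 3 with no filter, 0 with only the 2 groups and 5 without rats 2526, 2572 and 2532, and the 1315 for CA1 minus DG became 2278 with the number series and 0 without those rats. Without replicate 2532 these were 0 and 1. For age in CA1, 2 calls became 303 with library weights and 7 with DESeq2, and for young LPS against aged vehicle in DG 2 became 171 and 22. The log2 changes below changed sign, all of them uncalled, and the cause was not tested. With DESeq2, the log2 changes were Cdkn1c -0.096 for LPS in CA1, Cdkn2c -0.0082 for age in CA1, Cdkn1a -0.013, Cdkn2c -0.0051, Mdm2 -0.012 for age in DG. With edgeR, the log2 changes were Cdkn1c -0.10 for LPS in CA1, Cdkn2c -0.0011 for age in CA1, Cdkn1a -0.014, Cdkn2c -0.0090, Mdm2 -0.012 for age in DG. With the dissection score, the log2 changes were Cdkn1b -0.053 for LPS in CA1, Cdkn2c -0.033 for age in CA1, Cdkn1a -0.078, Cdkn1b -0.031 for age in DG, Cdkn1b 0.0019, Cdkn1c 0.084 for LPS against aged in DG. With library weights, the log2 changes were Cdkn1c 0.039, Cdkn2c -0.23, Mdm2 -0.0071 for age in CA1, Gadd45a 0.044 for LPS against aged in CA1, Cdkn1a 0.042, Cdkn1c 0.16 for LPS in DG, Cdkn1c 0.055, Cdkn2c -0.073, Gadd45a 0.050, Mdm2 -0.050 for age in DG, Cdkn1c 0.11 for LPS against aged in DG. With the number series, the log2 changes were Mdm2 0.055 for LPS in CA1, Gadd45a 0.0022 for age in CA1, Cdkn2c 0.016 for LPS in DG, Cdkn1a -0.22, Cdkn1b -0.010 for age in DG, Mdm2 0.019 for LPS in CA1 minus DG, Cdkn1a 0.096, Gadd45a 0.018 for age in CA1 minus DG. Without rats 2526, 2572 and 2532, the log2 changes were Cdkn1a 0.071, Mdm2 -0.0022 for age in CA1, Gadd45a 0.032 for LPS against aged in CA1, Cdkn1c 0.20, Mdm2 -0.084 for LPS in DG, Cdkn1b -0.00048, Cdkn2c -0.070, Gadd45a 0.14, Mdm2 -0.071 for age in DG, Cdkn1c 0.26, Mdm2 -0.013 for LPS against aged in DG, Cdkn1a 0.031 for age in CA1 minus DG. Leaving out each library in turn changed the sign in these ranges: Cdkn1b -0.0016 to 0.087, Cdkn1c -0.035 to 0.32, Mdm2 -0.13 to 0.017 for LPS in CA1, Cdkn1a -0.20 to 0.024, Cdkn2c -0.10 to 0.10, Gadd45a -0.18 to 0.043 for age in CA1, Gadd45a -0.19 to 0.032 for LPS against aged in CA1, Cdkn1b -0.062 to 0.019, Cdkn2c -0.082 to 0.027, Mdm2 -0.079 to 0.097 for LPS in DG, Cdkn1a -0.12 to 0.15, Cdkn1b -0.012 to 0.050, Cdkn2c -0.045 to 0.052, Gadd45a -0.13 to 0.062, Mdm2 -0.089 to 0.058, Rb1 -0.067 to 0.027 for age in DG, Cdkn1b -0.071 to 0.011, Cdkn1c -0.24 to 0.26, Cdkn2c -0.086 to 0.019, Mdm2 -0.027 to 0.087 for LPS against aged in DG, Mdm2 -0.18 to 0.040 for LPS in CA1 minus DG, Cdkn1a -0.32 to 0.15, Cdkn1c -0.25 to 0.34, Cdkn2c -0.11 to 0.11, Gadd45a -0.16 to 0.17 for age in CA1 minus DG. The depth limits Cdkn2a, at 3 reads or fewer in most libraries.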
